A study of Xenopus laevis with 6 samples.

Results

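The 2 regions described here are the Etv6 peaks at foxo3.L and foxo3.S, out of 9128 peaks in the consensus list of the series. They were found by position on the X. laevis v9.1 genome, as the listed peak that overlaps 79640972 to 79641866 on chromosome 5L and the one that overlaps 60807036 to 60807326 on chromosome 5S. Each position met 1 listed peak. All other listed peaks within 1 Mb of either were taken as its neighbourhood, which held 4 peaks for each copy.

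Foxo3 is a forkhead transcription factor of the FoxO group. In mammals, insulin and growth factor signaling through PI3K and AKT phosphorylates FoxO proteins and keeps them out of the nucleus. When that signal is low they enter the nucleus and control genes of stress resistance, growth arrest and metabolism. X. laevis is allotetraploid, and most of its chromosomes come as an L and an S member that descend from separate ancestral species, so that many genes, foxo3 among them, are present as an L and an S homeolog. Etv6 belongs to the ETS family of DNA-binding proteins and is known mainly as a transcriptional repressor. The study asked whether foxo3 links Etv6 to vegfa, the gene of a growth factor for blood vessels, in the somites.

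Etv6 ChIP-seq was performed on 3 samples of wild-type J-strain somites at stage 22, with an antibody raised to order against Etv6, and 3 input samples without antibody served as controls. The somites were dissected by hand, and the embryos of all 6 samples were untreated. A peak list holds no expression, so the tissue could not be checked against marker genes. According to the study's methods, somites dissected in this way came with hypochord, notochord, neural tube and part of the dorsal endoderm, so the cells in which the peaks arose cannot be told apart. Peaks were called in each ChIP sample against its input, and the regions found in all 3 were merged into 1 list. The list gives a start, an end and a number for each peak, and its score is 0 in every row, so neither the spread between replicates nor depth nor enrichment is known from it.

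The Etv6 peak at foxo3.L had a length of 896 bp, and that at foxo3.S a length of 292 bp. The L peak was thus 604 bp, or 3.07-fold, longer than the S peak. Length is the deposited end minus the deposited start, and the printed starts have 2 bp added. Against the median length of 543 bp over the whole list, with quartiles at 415 and 743 bp, foxo3.L lay above the upper quartile and foxo3.S below the lower one. Only 349 of the 9128 peaks (3.82%, exact 95% confidence interval 3.44 to 4.24%) were as short as or shorter than the foxo3.S peak. For the foxo3.L peak the number was 7771 (85.1%, exact 95% confidence interval 84.4 to 85.9%). These shares are ranks in a complete list, and the intervals treat its peaks as independent draws, which they are not. The intervals therefore do not measure the error of either length. No test was made of the difference, since a consensus peak has no length per replicate.

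**Figure D1:**
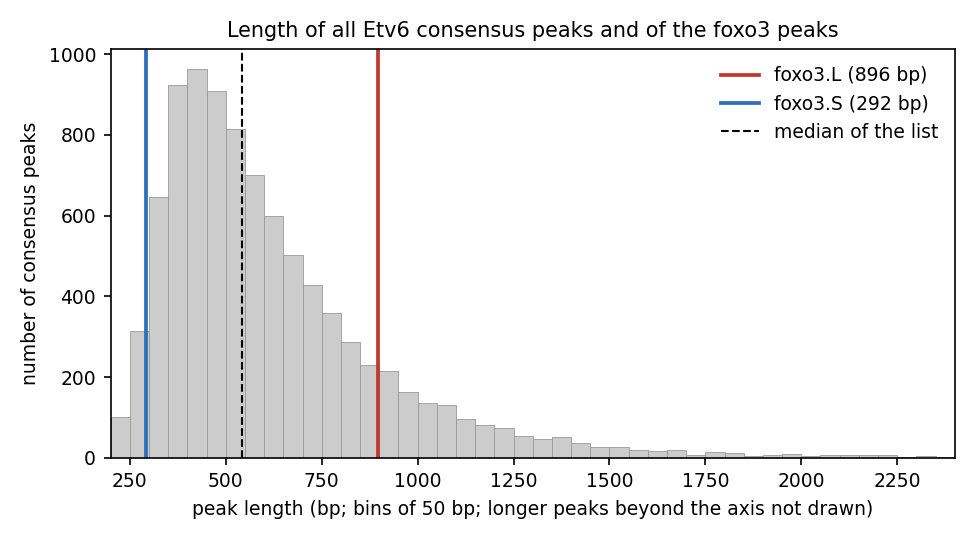
Number of Etv6 consensus peaks (vertical axis) by peak length in bp (horizontal axis, bins of 50 bp), with the foxo3.L peak (red line, 896 bp), the foxo3.S peak (blue line, 292 bp) and the median of the list (dashed line, 543 bp). The foxo3.S line stands at the short end of the distribution and the foxo3.L line in its long tail.

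Within smaller sets of peaks, foxo3.S stayed at the short end and foxo3.L in the long tail, with shares that moved. Of the 6118 peaks on chromosomes, without the scaffolds, 141 (2.31%) were as short as or shorter than the foxo3.S peak, and 5203 (85.0%) as short as or shorter than that of foxo3.L. On chromosome 5S, 10 of 305 peaks (3.28%) were as short as or shorter than that of foxo3.S, and the longest peak of that chromosome had 3548 bp. On chromosome 5L, 343 of 404 peaks (84.9%) were as short as or shorter than that of foxo3.L. The study lists 545 peaks in the transcription start site regions of genes whose expression changed without Etv6, called direct target peaks below, and both foxo3 peaks are among them. In that set the median length was 546 bp. The foxo3.S peak was longer than only 12 of the 545, while 54 (9.91%) were as long as or longer than the foxo3.L peak.

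Among genes with a direct target peak at both copies, foxo3 was the pair whose lengths differed most. There were 34 such pairs by name, with 1 peak at each copy. Their absolute difference in length had a median of 136.5 bp, with quartiles at 35.8 and 286 bp, and the foxo3 difference of 604 bp ranked 1 of 34. The next were pdk3 (577 bp), which encodes a kinase of the pyruvate dehydrogenase complex, and vezf1 (553 bp), a zinc finger gene linked to blood vessel development. In these data the longer pdk3 peak was on S (481 bp at L and 1058 bp at S), and the longer vezf1 peak was on L (1132 bp and 579 bp). As a ratio of the longer to the shorter peak, foxo3 also stood first, at 3.07 against 2.57 for slc20a1, a phosphate transporter gene, and a median of 1.34. Only 3 of the 34 pairs had a ratio of 2 or more.

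The direction seen at foxo3 was also that of vezf1, osgin2, slc20a1 and cacna2d2, while pdk3 had the reverse. By difference, these ranked next after foxo3. Over all 34 pairs the 2 directions were about equally common. The L peak was the longer one in 16 pairs and the S peak in 18. Of the 68 peaks in these pairs, 1 was shorter than that of foxo3.S and 10 were longer than that of foxo3.L. By rank, the S peak therefore lay nearer to the end of this set than the L peak did. The same chromosome pair holds 3 further pairs of this kind, with nearly equal lengths. At tnk2, which encodes a non-receptor tyrosine kinase, the lengths were 928 bp on L and 943 bp on S. At slc30a1, a zinc transporter gene, they were 406 and 387 bp, and at ppp2r3a, which encodes a regulatory subunit of protein phosphatase 2A, 413 and 398 bp. The foxo3 pair was chosen with its lengths known, so this order is a description without a test.

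**Figure D2:**
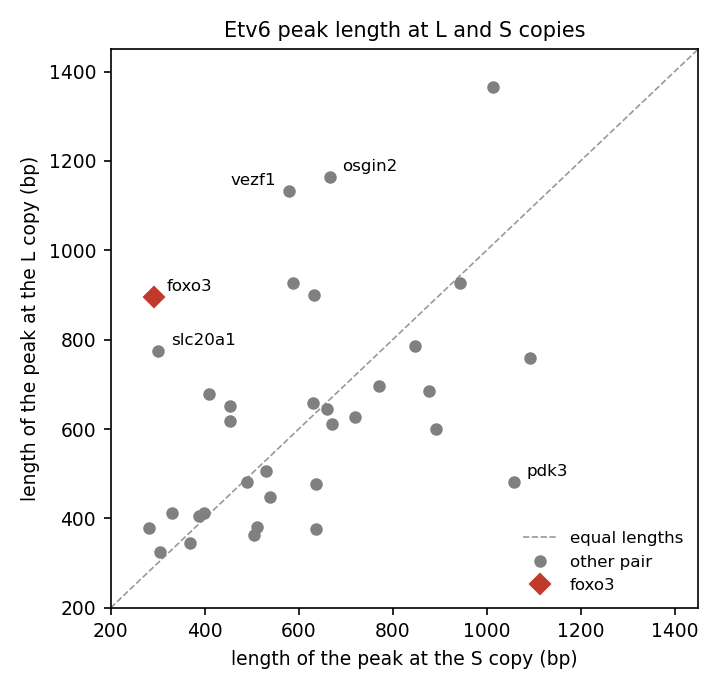
Length in bp of the Etv6 peak at the L copy (vertical axis) against that at the S copy (horizontal axis) for the 34 pairs of homeologs with a direct target peak at each, 1 point per pair. The foxo3 pair (red diamond) lies at 896 and 292 bp, farther from the line of equal lengths than any other pair.

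Both foxo3 peaks had 4 listed peaks within 1 Mb, but the 4 were placed differently around each. For foxo3.L, 2 lay at lower and 2 at higher coordinates, and for foxo3.S, 1 lay at lower and 3 at higher coordinates. The study's browser views draw both genes running towards lower coordinates from a start site at the peak, so that higher coordinates are upstream of the gene in those views.

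On chromosome 5L, the nearest peak to that of foxo3.L lay 14.6 kb away at higher coordinates, from 79656455 to 79657106, with a length of 653 bp. A further peak of 672 bp, from 79694747 to 79695417, was 52.9 kb away on the same side. At lower coordinates the first peak was that of sesn1.L, from 79399328 to 79399938, which had a length of 612 bp and lay 241 kb away. Sestrin 1, its product, restrains mTORC1 signaling under stress, and in mammals its gene is a known FoxO target. The last of the 4, from 78665848 to 78666234, had 388 bp and lay 975 kb away. All 4 neighbours were shorter than the foxo3.L peak itself, which was the longest in its neighbourhood.

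On chromosome 5S, the nearest peak to that of foxo3.S lay 10.8 kb away at higher coordinates, from 60818172 to 60819050, and had 880 bp. On the other side, 17.4 kb away, lay a peak of 438 bp from 60789243 to 60789679. The remaining 2 lay at higher coordinates, at 323 kb with 615 bp (61130719 to 61131332) and at 425 kb with 3548 bp (61232451 to 61235997). All 4 neighbours were longer than the foxo3.S peak, the reverse of the order at foxo3.L. The length of the peak 10.8 kb above foxo3.S was close to that of the foxo3.L peak, 880 against 896 bp. The genes or intergenic stretches under the unnamed neighbours were not determined, since an annotation of v9.1 was not used here.

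**Figure D3:**
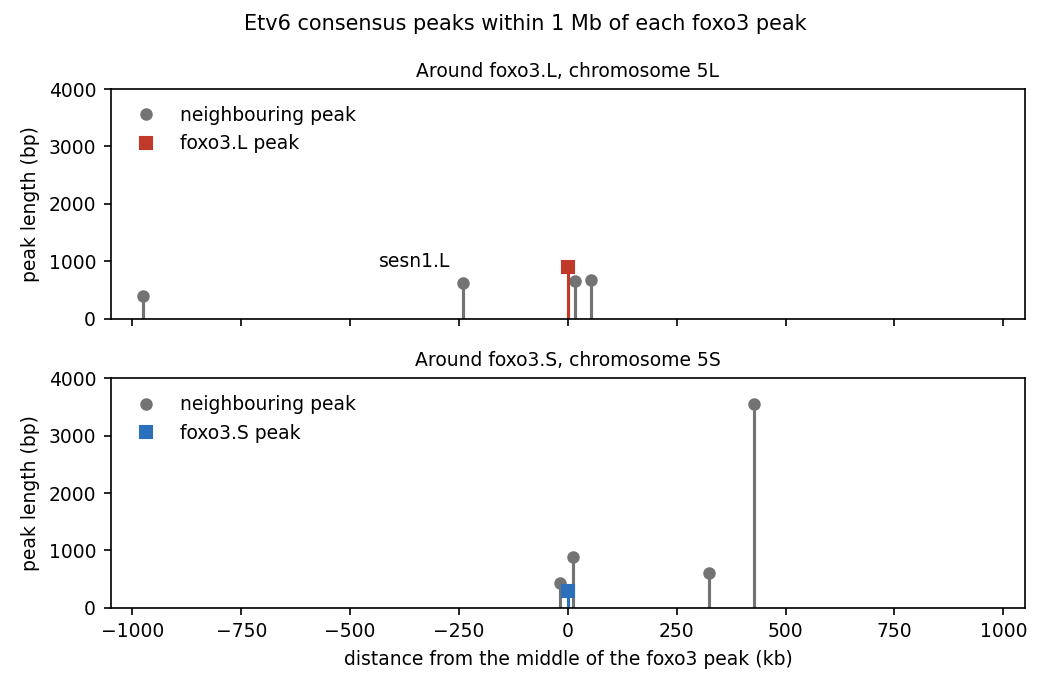
Peak length in bp (vertical axis) against the distance in kb from the middle of the foxo3 peak (horizontal axis, higher coordinates to the right) for all Etv6 consensus peaks within 1 Mb of foxo3.L (upper panel) and foxo3.S (lower panel), 1 point per peak. The foxo3.L peak (896 bp) is taller than its 4 neighbours, and the foxo3.S peak (292 bp) is lower than all of its own, which reach 3548 bp. Most peaks of the whole list are also shorter than that of foxo3.L and longer than that of foxo3.S.

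The 3548 bp peak near foxo3.S was the longest on chromosome 5S and 1 of 102 in the list over 2 kb (1.12% of all peaks). The neighbourhood of foxo3.L held no peak of that size. Of the 6118 peaks on chromosomes, 537 (8.78%) had a peak over 2 kb within 1 Mb, so that foxo3.S shares this with a minority of the list. Together with the foxo3 peak, the listed peaks covered 3221 bp of the L neighbourhood and 5773 bp of the S neighbourhood, and the 3548 bp peak made up most of the latter. The median length of the 4 neighbours was 632.5 bp at L and 747.5 bp at S.

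A count of 4 neighbours was below the median of the peaks on chromosomes but within their quartiles. Peaks on chromosomes had a median of 6 neighbours within 1 Mb, with quartiles at 3 and 9, and 38.9% of them had 4 or fewer. Of the 8 neighbours, 4 lay on L (exact 95% confidence interval of the share 15.7 to 84.3%), and the L share of all peaks on 5L and 5S was 57.0% (404 of 709). Equal counts at both copies were found in 6 of the 31 pairs with both peaks on chromosomes. Neighbouring peaks are not independent, so the interval covers counting error only, and no test of the L share was made.

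Both foxo3 peaks were closer to another peak than the median peak was, though not exceptionally so. The distance to the nearest peak, 14.6 kb for foxo3.L and 10.8 kb for foxo3.S, had a median of 71.3 kb over the peaks on chromosomes, and 27.9% and 26.0% of these were as near to another peak as foxo3.L and foxo3.S were. On chromosome 5L 30.9% of peaks were as near as foxo3.L, and on 5S 29.5% were as near as foxo3.S. Among the 515 direct target peaks on chromosomes the median was 98.3 kb, and 12.8% and 10.5% were as near. Within 50 kb, foxo3.L had 1 neighbour and foxo3.S had 2, where the median peak had 0.

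Within 100 kb each foxo3 peak had 2 neighbours, where peaks on chromosomes had a median of 1 and an upper quartile of 2. Each group of 3 peaks formed in this way had at least 1 long stretch without a listed peak beside it. Above the 3 peaks at foxo3.L, the next listed peak was 986 kb farther along the chromosome, and 12.2% of the 6100 gaps between successive peaks on chromosomes were as long or longer. Below the 3 peaks at foxo3.S, the next was 1.03 Mb away, a length that 11.4% of gaps reached. Each share is for a single gap, while the longer of the 2 gaps beside each group is given here. A gap that long on at least 1 side of a group can therefore be more common than these shares. The median gap was 192 kb, and the gaps on the other sides were 241 kb below foxo3.L and 312 kb above the group of foxo3.S. The group of foxo3.L extended over the 2 peaks upstream in the study's views, while that of foxo3.S had 1 peak on either side.

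The neighbourhoods parted at larger distances. Within 2 Mb, foxo3.L had 6 neighbours and foxo3.S had 13, against a median of 11 for peaks on chromosomes. Within 5 Mb the numbers were 12 and 33, against a median of 25. Only 6.13% of the peaks on chromosomes had as few as 12 neighbours within 5 Mb, while 75.6% had 33 or fewer. Up to 500 kb the counts differed by no more than 1, as the plot of counts by window shows.

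**Figure D4:**
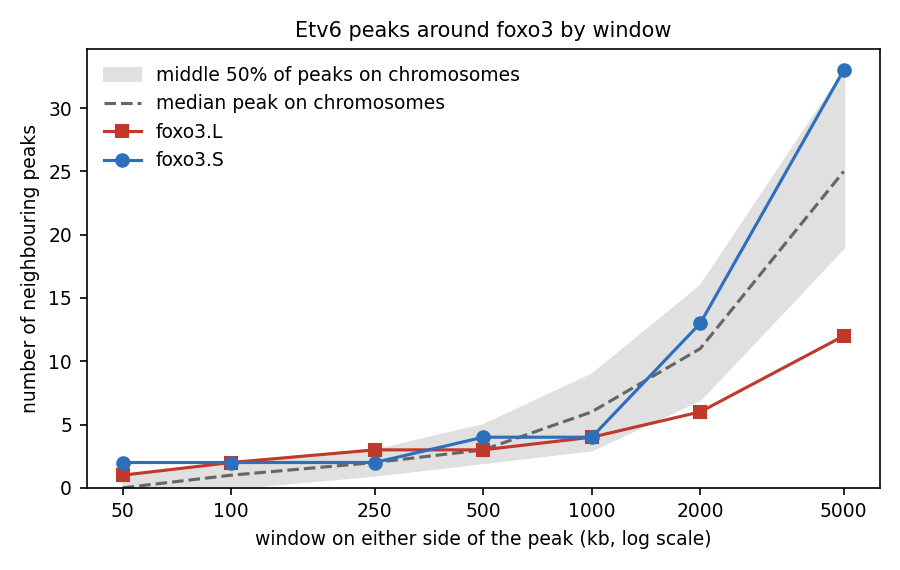
Number of neighbouring Etv6 consensus peaks (vertical axis) within windows of 50 to 5000 kb on either side (horizontal axis, log scale) for foxo3.L (red squares) and foxo3.S (blue circles), with the median (dashed line) and the middle 50% (grey band) of the 6118 peaks on chromosomes. The copies have equal counts at 1000 kb (4 and 4) and differ at 5000 kb (12 and 33).

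A direct target peak near foxo3 was found on L only. The sesn1.L peak was the nearest other direct target peak to foxo3.L, at 241 kb, and 16.5% of the 515 direct target peaks on chromosomes had one of another gene as near. No listed peak lay between the sesn1.L and foxo3.L peaks. The nearest direct target peak to foxo3.S was that of marcks.S, whose product is an actin-binding substrate of protein kinase C, at 2.30 Mb, against a median of 1.43 Mb. On the side of higher coordinates, the next direct target peaks were 10.9 Mb from foxo3.L (elovl5.L, a fatty acid elongase gene) and 25.1 Mb from foxo3.S (tnk2.S).

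The genes found around both foxo3 copies stood in the same order on the 2 chromosomes, but not all genes had a counterpart by name among those compared. In the RefSeq gene table of the v10.1 genome, used here for names and order only, 11 of the 20 nearest protein-coding genes of foxo3.L (10 on each side) had their counterpart among the 20 nearest of foxo3.S. They were cdc40, wasf1, gpr6 and sesn1 on the lower side and snx3, nr2e1, ostm1, sec63, scml4, sobp and bend3 on the higher side. Other genes near foxo3.L, such as fig4, cep57l1, armc2 and afg1l, had no counterpart among those of foxo3.S. Counterparts were matched by symbol, so unnamed genes could not match. A counterpart beyond the 10 genes on a side was not looked for. Of the 20 genes around each copy, 1 at L (sesn1.L) and 0 at S had a direct target peak. Over all 14652 named genes of the RefSeq table, with L and S copies counted as 1, the share was 1.65%. That share takes a peak at either copy and leaves out unnamed genes. It also leaves out direct target genes whose names are not in the RefSeq table, so it can be too low. The 20 neighbours are single copies with some unnamed genes, so the values are not of the same unit. The sesn1.S gene is next to foxo3.S in that order and lies between marcks.S and foxo3.S. This interval of 2.30 Mb in v9.1 held 8 listed peaks of 383 to 2687 bp, none of them a direct target peak. A peak at sesn1.S whose gene did not pass the study's test of expression would not carry its name there, so its absence from that table does not show that sesn1.S was unbound.

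The genes that act with FoxO proteins and those known as their targets differed in how many had a direct target peak. In a list of 24 genes of the FoxO and insulin pathway, which holds the FoxO genes foxo1, foxo3, foxo4 and foxo6, the AKT and SGK kinases, PI3K subunits, pten and the receptors insr and igf1r, foxo3 itself was the only 1. In a list of 21 genes known as FoxO targets in mammals, of which 18 were found in the RefSeq table, 5 had such a peak. Of all named genes, 1.65% had one. That share can be too low, since only 262 of the 545 direct target rows matched the RefSeq table by symbol. The counts for the lists were made on the names of the direct targets themselves. Of the small list etv6, klf4, foxo3 and vegfa, klf4 and foxo3 were in the table of direct targets by name. Absence from that table does not mean unbound. The study also reports Etv6 peaks at the promoter of vegfa.L, whose expression did not pass its RNA-seq test, and at klf4.S. The lists were chosen with results of these data known, so these counts are a description without a test. For the same reason, setting them beside the share of all named genes does not show enrichment. A gene is counted only if its expression also changed in the study.

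The 5 FoxO target genes included each of the 3 sestrin genes, at 1 copy each. Besides sesn1.L (612 bp), the peak of sesn2.S had 760 bp and lay on chromosome 2S from 63908178 to 63908936. That of sesn3.S had 713 bp and lay on the same chromosome from 147285267 to 147285978. The other 2 were cdkn1a.L (610 bp, chromosome 2L, 54365131 to 54365739), which encodes the cell cycle inhibitor p21, and klf4.L (675 bp, chromosome 1L, 118370098 to 118370771), a Krüppel-like factor gene that the study also followed. With 610 to 760 bp, these 5 peaks were all shorter than that of foxo3.L and above the list median of 543 bp. Of all 545 direct target peaks, 492 (90.3%) were as short as or shorter than that of foxo3.L, so being shorter does not set these 5 apart. Other forkhead genes with a direct target peak were foxn2.S (748 bp) and foxk2.L (637 bp), so that foxo3 was the only forkhead gene with such a peak at both copies.

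The study followed foxo3 with other assays in the somites, which were not analysed here. It reports Etv6 enrichment at the foxo3 peaks by ChIP-qPCR, with an Ets and several Klf/Sp binding motifs in them. In Etv6-deficient somites, foxo3 was higher by in situ hybridization and RT-qPCR. Foxo3 bound the vegfa promoter, and foxo3 morpholinos restored somite vegfa in Etv6-deficient embryos. In wild-type embryos of the stage sampled, the study detected foxo3 in the notochord but not in the somites. The dissected samples held both tissues. The study's primers for ChIP-qPCR and RT-qPCR and its in situ probes were designed to detect both copies at once. Its luciferase reporters were made for each peak separately. Morpholinos were also designed for each copy, and they were injected together to deplete Foxo3. Of these assays, the reporters are the ones that read the sequence under each peak on its own. In the study both sequences drove the reporter in wild-type embryos, that of foxo3.S more strongly. Both were more active in Etv6-deficient embryos. How peak length relates to reporter activity was not tested. In the study's tables of expression, the transcript identifier given to foxo3.L in one is given to foxo3.S in the other, and the reverse. Which expression values belong to which peak was not settled here, and none is used.

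The peak numbers, whose meaning is not stated, ran from 7035 to 7040 in the L neighbourhood and from 7784 to 7792 in the S neighbourhood. Of the 6 numbers at L, 5 were in the list, and of the 9 at S, also 5. The foxo3.S peak (7785) and its nearest neighbours on both sides carried successive numbers, as did the foxo3.L peak (7038) and the 2 peaks above it.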

How the data were processed

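Etv6 ChIP-seq of somites, with 3 ChIP and 3 input samples, was analysed from the consensus peak list that the authors deposited. By the study's methods and the submitters' processing notes, Trimmomatic 0.32 trimmed the reads and BWA 0.7.12 aligned them, using X. laevis v9.1 as reference. Peaks were called per replicate with MACS2 at default thresholds and merged with DiffBind, keeping those found in 3. A merged peak spans the overlapping calls, so its length can exceed that of any replicate. The list holds 0 columns of per-sample values, and 303 deposited starts are negative. Adding 2 bp to each start made all 545 direct target peaks identical in start and end to the study's table, which was used for gene names and positions only. Distances run from edge to edge. Shares have exact (Clopper-Pearson) intervals. Gene order came from RefSeq (v10.1), in which 262 of the 545 direct target rows matched by symbol. The order of matched genes was the same for 20 of 20 successive pairs on 5L and 22 of 22 on 5S. The functions were tested on simulated data. Calculations used SciPy 1.17.1, pandas 2.3.3 and NumPy 2.4.6 under Python 3.11.15, and plots used Matplotlib 3.10.9. The members, gene lists and comparisons were chosen with earlier results of these data known. Genes were named where the study assigns them to a peak within 1 Mb of foxo3, where they stood among the 10 next genes on either side, or where a list of FoxO pathway or target genes held them. The homeolog pairs, the nearest direct target peaks beyond 1 Mb and the other forkhead genes were named after their values were seen. Promoter motifs and protein sequences, which had been planned, were not analysed here.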

Additional observations from a re-analysis of the deposited data

How the results depend on the processing

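No paired analysis was possible because peaks were merged over samples before deposit. For that reason the planned fits without each replicate or with a replicate block were not run, nor was a stricter score, which is 0 throughout. Over 11 results, 19 of 29 alternatives were counted as leaving the result the same. Apart from the distances, these left the value unchanged, within its interval or within 1.5 times its count. The distances to the nearest peak did change. From midpoint to midpoint they were 15.36 kb at foxo3.L and 11.43 kb at foxo3.S. The difference of 604 bp between the foxo3 peaks did not change when peaks less than 100 bp or 1 kb apart were merged. This could not have been otherwise, since the nearest peaks lay 14.59 kb from foxo3.L and 10.85 kb from foxo3.S. The merged lengths and their difference are among the 19, so that count overstates how far the results were put to the test. Taken as inclusive spans, the lengths were 895 bp at foxo3.L and 291 bp at foxo3.S. The share of peaks as short as or shorter than foxo3.L was 90.3% among direct target peaks. For foxo3.S it was 2.31% on chromosomes, 3.28% on 5S and 2.57% among direct target peaks. Within 2 Mb in place of 1 Mb, the neighbours of foxo3.S numbered 13, and their median length was 615 bp, against 538 bp at foxo3.L. Within 500 kb the median at foxo3.L was 653 bp. The median was higher at foxo3.S than at foxo3.L in each of the 3 windows, and a wider window adds peaks by construction. At foxo3.S the windows of 500 kb and 1 Mb held the same 4 peaks, so their medians are 1 value and not separate support. No depth is given in the list, so how depth limits a peak's length was not tested. The study does report depth per sample, with fewer uniquely mapped reads for ChIP replicate 3 than for replicates 1 and 2. A peak had to be called in that replicate too.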
